A study of Mus musculus with 18 samples.

Results

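The genes described here encode the subunits of the respiratory chain and of ATP synthase, the machinery of oxidative phosphorylation, in mouse liver. They were chosen by type and symbol: protein-coding genes named Nduf followed by a, b, c, s or v, but not the assembly factors named Ndufaf, for complex I, Sdha to Sdhd for complex II, Uqcr genes for complex III, Cox4 to Cox8 genes for complex IV, Atp5 genes for ATP synthase, and the mitochondrial genes mt-Nd, mt-Cytb, mt-Co and mt-Atp. The rule found 99 gene identifiers, 86 in the nucleus and 13 on the mitochondrial chromosome, of 22028 protein-coding genes and 55536 identifiers in all. Of these 99, 90 had enough counts to be tested (77 nuclear and all 13 mitochondrial), among 14835 genes tested.

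The libraries came from livers of female C57BL/6 mice of 3 genotypes, called WT (AhRfl/fl in the series' text), dHep (AhRΔHep) and dHSC (AhRΔHSC). The last 2 are named for loss of the aryl hydrocarbon receptor (AhR) from hepatocytes and from hepatic stellate cells. AhR is the transcription factor through which TCDD, a persistent dioxin, acts. Mice were gavaged with 100 µg/kg TCDD or with peanut oil, the vehicle, every 4 days over 92 days. Each of the 6 groups held 3 mice and each mouse gave 1 library of poly-T selected RNA, so all values are for whole liver. The floxed allele is stated for the WT group alone, so the WT mice are floxed controls rather than unmodified mice. The labels name neither the Cre driver nor the deleted part of Ahr, nor the age of the mice. Libraries are named here by group and mouse number, as in WT vehicle mouse 7.

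Oxidative phosphorylation couples the oxidation of NADH and succinate to the making of ATP. Complexes I, III and IV pump protons across the inner mitochondrial membrane, complex II feeds electrons from succinate without pumping, and ATP synthase uses the returning protons. All but complex II mix subunits made from the nuclear genome with subunits made inside the mitochondrion, where both strands of a small circular DNA are transcribed as long RNAs and then cut into single messages. The liver is rich in mitochondria.

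Libraries held 12706490 to 27240877 counts. A group of 5 libraries stood apart in the share of counts outside protein-coding genes. In dHep vehicle mice 9 and 15, dHep TCDD mouse 16, dHSC vehicle mouse 17 and dHSC TCDD mouse 18 this share was 2.20% to 4.25%, and in the other 13 it was 1.13% to 1.76%. None of the 5 is a WT library, and the medians of each comparison below are given with and without them. Leaving them out leaves 1 dHep vehicle library and 2 in each of the other 3 dHep and dHSC groups. All libraries held counts for liver genes: summed over 10 hepatocyte markers, CPM, a gene's count relative to its library's total after trimmed-mean (TMM) scaling, ranged from 55431 to 174345. WT vehicle mouse 1 also held skeletal muscle RNA, with a summed level of 2394 CPM over 16 muscle genes against at most 7.38 elsewhere. It held fat genes too: Adipoq measured 20.1 CPM and Plin1 11.2 CPM there, against at most 0.844 and 0.773 CPM elsewhere, while the brown fat gene Ucp1 measured 0.115 CPM. For Ahr itself, group means were between 38.0 and 61.6 CPM with overlapping libraries. No comparison called it by edgeR's quasi-likelihood test (lowest adjusted p 0.652), and the counts do not show which part of the gene the reads covered. Cyp1a1, the classical AhR target, rose with TCDD by 8.70 ± 0.92 (SE) on the log2 scale in WT (n = 3 against 3, adjusted p = 4.56e-05, edgeR).

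The 13 mitochondrial genes lie end to end, and a few of their reading frames overlap. The stretch shared by the end of mt-Atp8 and the start of mt-Atp6, both ATP synthase subunits of the membrane part, lies at chrM:7927-7969 on the plus strand of GRCm38. It is shown because genes lying wholly under others held few or no counts in these files, so reads within this stretch may belong to neither count. Capitals mark the start codon of mt-Atp6.
mt-Atp8 and mt-Atp6 overlap: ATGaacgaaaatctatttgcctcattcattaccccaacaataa

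The nuclear members are known for promoters with sites for nuclear respiratory factor 1 (NRF1), for the ETS factor GABP and for YY1. RefSeq promoter windows of GRCm38.p6, 250 bases before to 50 after a start, were found for 69 of the 85 nuclear symbols, in 74 windows. On either strand, the letters of the NRF1 site (GCGCA, any base, then GCGC) were in 24.3% of the members' windows and in 6.38% of the 21263 windows of all protein-coding genes. ATGGCG, the YY1 core, was in 28.4% against 10.9%, CCGGAAG, the ETS core, in 21.6% against 11.6%, and AAGGTCA, the core of estrogen-related receptors, in 10.8% against 4.08%. GCGTG, the core of the AhR response element, was in 52.7% against 38.5%, and TATAAA was in 10.8% against 12.6%. GCGTG holds only 5 letters and can overlap a longer match. These are matches of letters, not measured binding. The windows of Cox6a1 and Sdhd are printed because Cox6a1 had the lowest p of all members in WT mice and Sdhd was called there under 2 alternative settings. Capitals mark NRF1 matches. The Cox6a1 window is chr5:115348909-115349208 and the Sdhd window chr9:50603800-50604099, both on the minus strand.
Cox6a1 promoter: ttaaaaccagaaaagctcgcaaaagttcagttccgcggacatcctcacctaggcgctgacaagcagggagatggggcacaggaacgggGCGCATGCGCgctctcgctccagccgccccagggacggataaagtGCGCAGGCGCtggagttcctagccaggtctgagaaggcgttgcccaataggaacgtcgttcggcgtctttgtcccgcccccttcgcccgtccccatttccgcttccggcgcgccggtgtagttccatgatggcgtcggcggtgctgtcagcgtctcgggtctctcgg
Sdhd promoter: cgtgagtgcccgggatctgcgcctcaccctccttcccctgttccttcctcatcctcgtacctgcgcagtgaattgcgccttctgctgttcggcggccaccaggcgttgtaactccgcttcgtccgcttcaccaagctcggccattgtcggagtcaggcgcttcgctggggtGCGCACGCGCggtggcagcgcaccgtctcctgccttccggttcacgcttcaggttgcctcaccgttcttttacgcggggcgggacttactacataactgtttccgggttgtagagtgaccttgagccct
The Cox6a1 window held 2 NRF1 matches, a YY1 core and an ETS core, and no GCGTG. The Sdhd window held 1 NRF1 match, an ETS core, an estrogen-related receptor core and GCGTG.

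As a share of all counts, the mitochondrial members outweighed the nuclear ones in every library. They took 5.38%, 9.16% and 6.13% of counts in WT vehicle mice 1, 7 and 13, and 5.04%, 5.08% and 6.30% in WT TCDD mice 2, 8 and 14. In dHep mice the shares were 6.45%, 9.22% and 9.38% with vehicle and 4.48%, 5.02% and 9.52% with TCDD. In dHSC mice they were 5.49%, 5.53% and 8.09% with vehicle and 5.26%, 5.29% and 27.5% with TCDD. The ranges overlapped between vehicle and TCDD in each genotype, and in each genotype the highest share belonged to WT vehicle mouse 7 or to one of the 5 libraries that stood apart. The 86 nuclear members together took between 1.30% (dHSC TCDD mouse 18) and 2.17% (WT TCDD mouse 8). The ratio of mitochondrial to nuclear counts lay between 2.34 and 5.78 in 13 libraries, between 4.32 and 6.16 in 4 of those apart, and at 21.1 in dHSC TCDD mouse 18.

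**Figure D1:**
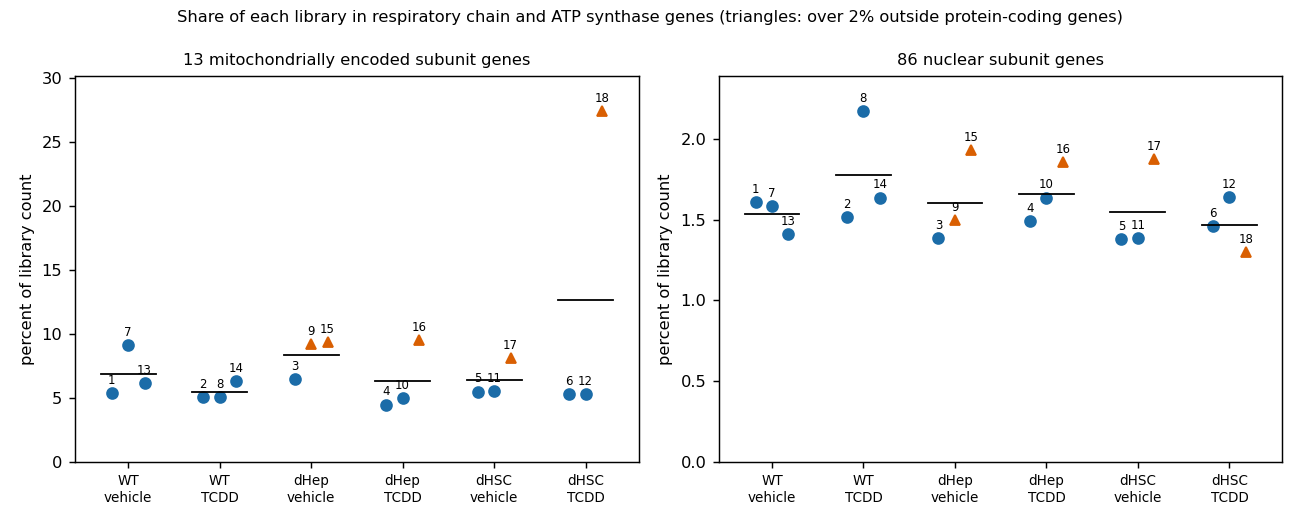
Percent of each library's counts in the 13 mitochondrially encoded genes (left) and the 86 nuclear genes (right), by group; points are single libraries with their mouse number, bars are group means, and triangles are the 5 libraries with over 2% of counts outside protein-coding genes. The mitochondrial share of dHSC TCDD mouse 18, at 27.5%, is the highest point, and all other libraries are under 10%.

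Per kilobase of transcript, the highest levels over the 18 libraries were those of mt-Co1, the catalytic subunit of complex IV, with a mean of 19572 CPM per kb, and mt-Cytb, the cytochrome b of complex III, with 11819 CPM per kb. The complex I genes mt-Nd1 and mt-Nd2 followed with 9869 and 8841 CPM per kb. The highest nuclear members on the same scale were Cox6a1 with 1256, Cox7c with 906, Atp5e with 829 and Atp5b with 693 CPM per kb. Of the 13 mitochondrial genes, 7 have a near-identical copy in the nuclear genome, a row of unprocessed pseudogenes on chromosome 1 (24611535 to 24616197, GRCm38). Identity was 100% for the copies of mt-Nd4, mt-Nd4l, mt-Co3, mt-Atp6 and mt-Co2, 99.7% for mt-Nd3 and 98.8% for mt-Co1. The copies held 0.198% to 1.60% of all counts, and a read within an identical stretch cannot be told apart from one of the mitochondrial gene. The copy of mt-Atp6 held 300077 counts over the 18 libraries and mt-Atp6 itself 99902. In the 13 libraries that did not stand apart, the copies of mt-Co3, mt-Co2, mt-Nd3 and mt-Nd4l also had higher medians than their genes. Those of mt-Nd4 and mt-Co1 had lower medians. Of the 50-base words of a gene, 98.0% to 100% also occurred in another gene for mt-Co2, mt-Co3, mt-Atp6, mt-Nd4l and mt-Nd3, 62.2% for mt-Nd4 and 51.1% for mt-Co1, so the levels of the first 5 are the most uncertain. None of the 50-base words of mt-Cytb, mt-Nd1 or mt-Nd6 occurred in another gene.

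A further 9 members were not tested. Ndufa13 of complex I and the complex IV genes Cox4i1 and Cox6a2 had 0 counts in all 18 libraries, and 100% of their exon bases lie under another gene, as do 100% and 73.3% of those of the 2 Atp5o identifiers (13 and 89 counts). Cox4i1, the usual liver form of the complex IV subunit 4, is thus not measured, and its 0 counts say nothing about its level. Cox4i2, its lung form, had 94 counts in all, and Cox7b2 and Cox8c, known from testis, had 0. A count of 0 allows up to 3 counts in a library, which equal 0.1101 to 0.236 CPM, for counting error only. Cox8b, the heart and muscle form of subunit 8, had 617 counts in all, of which 599 were in WT vehicle mouse 1.

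In WT mice, no subunit gene passed the test for a change with TCDD. Of 14835 genes tested, 798 (5.38%) were called in WT by edgeR's quasi-likelihood test at an adjusted p under 0.05, and 0 of 90 members were. DESeq2 called 0 members too. An unadjusted edgeR p under 0.05 was reached by 1 of 90 members, Cox6a1, beside 16.7% of all genes tested. The median log2 change was -0.05 over the 77 nuclear members and -0.42 over the 13 mitochondrial members, beside -0.01 over all genes tested. Of the nuclear members, 46 of 77 were below 0 and their range was -2.00 (Cox7a1) to 0.96 (Cox6a1). All 13 mitochondrial members were below 0, from -1.06 (mt-Cytb) to -0.11 (mt-Nd3). Members were assigned to complexes by symbol alone, so all Nduf genes, with Ndufa4 and Ndufa4l2, count under complex I. By complex, the nuclear medians were -0.00 for the 37 tested members of complex I and -0.08 for the 8 of complex III. They were -0.06 for the 12 of complex IV and -0.09 for the 16 of ATP synthase. The 13 mitochondrial genes come from common precursor RNAs in the same 3 mice a group, so they are not 13 separate observations. The median SE of a single member's log2 change was 0.473 for nuclear and 0.738 for mitochondrial genes. The WT medians were -0.06 and -0.41 without the 5 libraries.

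Cox6a1 (chromosome 5, 115345642 to 115348981, minus strand, GRCm38), the liver form of a small complex IV subunit, had the lowest p. Its levels were 416, 858 and 472 CPM in WT vehicle mice 1, 7 and 13 and 765, 1708 and 914 CPM in WT TCDD mice 2, 8 and 14. The TCDD libraries were the higher ones except that vehicle mouse 7 lay above TCDD mouse 2, so the groups overlapped. Without the trimmed-mean scaling they did not: 436, 657 and 461 against 930, 1705 and 1085 CPM. The log2 change was 0.96 ± 0.43 (SE, n = 3 against 3) with an adjusted p of 0.269 by edgeR, and the alternatives gave adjusted p from 0.102 to 0.763. Without TCDD mouse 8 the change was 0.53 (adjusted p = 0.763). With TCDD it was 0.19 in dHep and 0.38 in dHSC, and the difference between dHep and WT of -0.77 was not called.

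Complex II, made by 4 nuclear genes alone, had the lowest nuclear median of the 5 complexes in WT, at -0.49. Sdhd (chromosome 9, 50596357 to 50603812, minus strand), a membrane anchor of the complex, measured 267, 334 and 253 CPM with vehicle and 174, 131 and 166 CPM with TCDD in WT mice. All 3 TCDD libraries lay below all 3 vehicle libraries. The fitted change was -0.86 ± 0.57 (SE) with an adjusted p of 0.546 by edgeR. Without the 5 libraries that stood apart, none of them a WT library, the change was -0.85 and the adjusted p 0.0129, with the WT counts the same and the shared spread, scaling and filter different. With WT groups alone it was -0.85 with an adjusted p of 0.0739. Sdha, the flavoprotein that binds succinate, measured 758, 650 and 754 CPM with vehicle and 545, 321 and 477 CPM with TCDD, again without overlap, and its change of -0.69 ± 0.73 was not called. WT TCDD mouse 8 was the lowest library for both genes, and for Uqcrc2 below. All 3 genes were also low in the 5 libraries that stood apart, and the slope of level on transcript length in mouse 8, -0.41, lay within their range of -0.63 to -0.40. Without mouse 8 the changes were -0.74 for Sdhd (adjusted p = 0.804, edgeR) and -0.50 for Sdha (adjusted p = 0.966), and the other 2 TCDD libraries still lay below the vehicle libraries. Sdhb, the iron-sulfur subunit, and Sdhc, the other anchor, had changes of -0.18 and -0.30.

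In complex III, mt-Cytb measured 8387, 23412 and 11161 CPM with vehicle and 5580, 8133 and 6862 CPM with TCDD in WT mice. The TCDD libraries were all lower, and TCDD mouse 8 was close to vehicle mouse 1. Its change was -1.06 ± 0.67 (SE, adjusted p = 0.509, edgeR), and -0.51 without vehicle mouse 7. Uqcrc2, a core subunit, measured 268, 250 and 244 CPM against 224, 158 and 218 CPM, a change of -0.34 that was not called.

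Over all members in WT, 7 had all 3 TCDD libraries below all 3 vehicle libraries and 0 had them all above. The background shares over all genes tested were 11.4% lower and 13.4% higher. Besides Sdhd, Sdha, Uqcrc2 and mt-Cytb, the 7 were Ndufa9 (-0.34) and Ndufa4l2 (-0.43) of the complex I name family and Atp5f1 (-0.17), a stator subunit of ATP synthase. None of the 7 was called. In complex I the mitochondrial genes mt-Nd4l and mt-Nd5 had the largest changes, -0.94 ± 0.62 and -0.91 ± 0.54, with overlapping libraries. In ATP synthase, mt-Atp8 and mt-Atp6 had -0.52 and -0.32.

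Markers of other cells moved in WT beside these values. Summed over 10 hepatocyte genes the level was 99776 to 164703 CPM with vehicle and 55431 to 94741 CPM with TCDD. Most of that sum is Alb, which overlapped on its own (68097 to 117275 against 37247 to 73197 CPM), as did Ttr and the regulator Hnf4a (582 to 990 against 650 to 700 CPM). Apoa1, Apob, Cps1, Tat, Cyp2e1 and Serpina1a did not overlap, and each was lower with TCDD. Trf of this list measured at most 0.165 CPM in any library of the series, so it added almost nothing to the sum. It was at 0 in all 3 WT vehicle libraries and in 1 WT TCDD library, which says nothing about TCDD. Summed over 5 neutrophil genes it was 2.41 to 5.51 against 71.9 to 93.3 CPM. Retnlg was at 0 in 2 vehicle libraries and Cxcr2 in 1. Summed over 5 cholangiocyte genes, all of them detected in each WT library, it was 48.4 to 64.7 against 178 to 250 CPM. Spp1 made up most of it (40.2 to 50.3 against 156 to 224 CPM), and Krt19 and Sox9 overlapped. Sums over 5 B cell genes did not overlap either (10.4 to 29.0 against 53.7 to 103 CPM), with Ms4a1 at 0 in every library. Sums over 5 T cell genes were narrowly apart, at 2.58 to 6.83 against 7.06 to 8.93 CPM. Cd3g and Cd8a overlapped on their own, and Cd3e, Cd3d and Cd4 did not. Sums over stellate cell and myofibroblast genes (133 to 495 against 248 to 428 CPM) and endothelial genes (49.4 to 180 against 111 to 177 CPM) overlapped. The 495 CPM was that of WT vehicle mouse 1, the library with muscle RNA, where Des of the stellate list measured 180 CPM. Col1a1 (5.49 to 27.1 against 40.3 to 90.4 CPM), Col3a1 and Reln were higher with TCDD without overlap. Des, Pdgfrb, Acta2 and Rgs5 overlapped, and Lrat was at 0 in every library. In whole liver, fewer cells of a type and less RNA per cell cannot be told apart, and the part of these shifts in the subunit values was not tested.

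**Figure D2:**
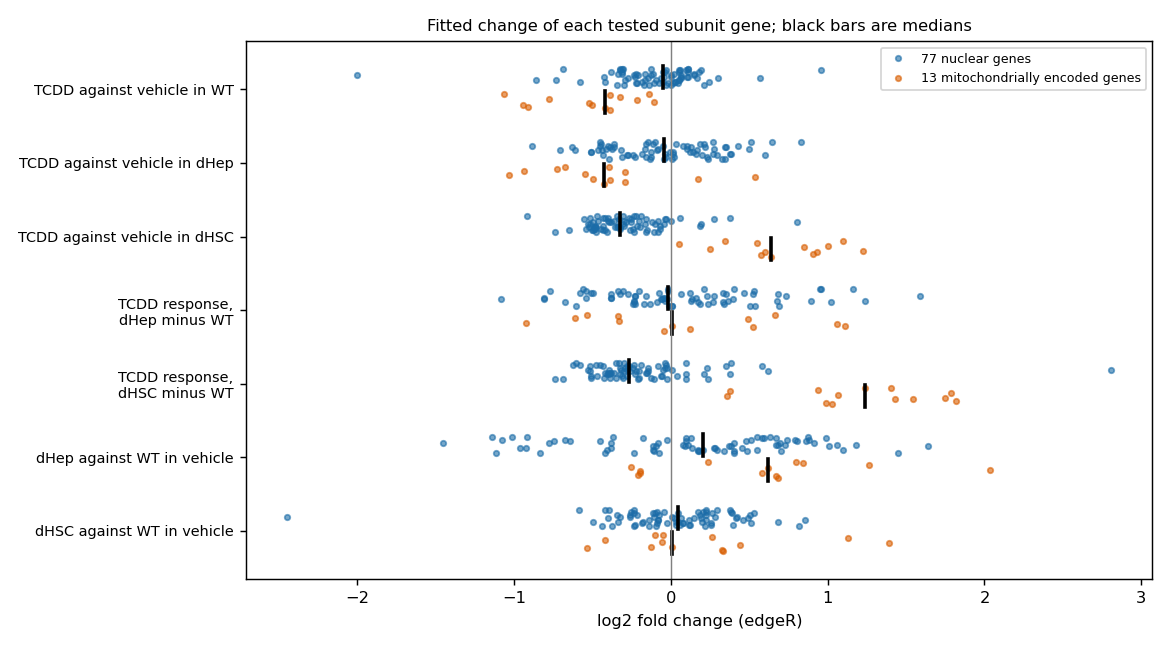
Fitted log2 change of each of the 77 nuclear (blue) and 13 mitochondrially encoded (orange) genes tested, in the 7 comparisons; each point is a gene, spread vertically only to be seen, and black bars are medians. None of the points was called by edgeR, and the mitochondrial median moves to 0.64 for TCDD in dHSC, where dHSC TCDD mouse 18 enters.

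In dHep mice, 0 of 90 members were called by edgeR or DESeq2 for TCDD against vehicle and 0 had an unadjusted p under 0.05. Over all genes edgeR called 0.0674% here, and 6.70% had an unadjusted p under 0.05. The median log2 change was -0.05 over nuclear and -0.43 over mitochondrial members. They were 0.35 and -0.11 without the 5 libraries, 3 of which are dHep libraries. Ndufb6, an accessory subunit of complex I, was the single member with all 3 TCDD libraries above all 3 vehicle libraries (0.60), beside a background of 4.56%, and 0 members had them all below, beside 5.03%. The outer values were 0.83 ± 0.70 for Cox5a, a complex IV subunit, and -0.89 ± 0.64 for Ndufb2 among nuclear members, and -1.03 for mt-Nd3 and 0.54 for mt-Atp8 among mitochondrial ones. Of complex II, Sdhd measured 266, 71.7 and 112 CPM with vehicle and 239, 227 and 118 CPM with TCDD. The 3 low libraries are the ones that stood apart, in both groups. In complex III, mt-Cytb had -0.40 ± 0.66, and in ATP synthase mt-Atp6 had -0.94 ± 0.92 and Atp5s, a coupling factor, -0.63 ± 0.32.

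In dHSC mice, edgeR called 2.55% of all genes for TCDD against vehicle and 0 of 90 members. DESeq2 called 0 members as well, and 0 had an unadjusted edgeR p under 0.05, beside 12.2% of all genes. The nuclear median was -0.32, with 70 of 77 members below 0, and the mitochondrial median was 0.64, with all 13 above 0. Without the 5 libraries the medians were -0.02 and -0.22. With all libraries, the nuclear medians of the 5 complexes were close to each other, from -0.36 (complex II) to -0.31 (complexes III and IV). No member had all 3 TCDD libraries above the vehicle libraries, beside a background of 9.61%, and 5 had them all below, beside 7.7%. Those 5 were Atp5g3 (-0.56) and Atp5g2 (-0.52), which encode the ring subunit c of ATP synthase, Ndufb10 (-0.65), Sdhc (-0.41) and Uqcrh (-0.52), the hinge subunit of complex III.

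For the nuclear members in dHSC, the high library was vehicle mouse 17. Their median log2 of CPM plus 0.5 was 6.72, 6.82 and 7.76 in vehicle mice 5, 11 and 17. In TCDD mice 6, 12 and 18 it was 6.73, 6.71 and 6.82. The high mitochondrial median came with 1 other library. mt-Co1 measured 25677, 25181 and 25236 CPM with vehicle and 24872, 22301 and 105410 CPM with TCDD. Only TCDD mouse 18 was high, and the other 2 TCDD libraries lay below all 3 vehicle libraries. The fitted change was 1.004 ± 0.54 (SE, adjusted p = 0.506, edgeR), and -0.11 without mouse 18. mt-Cytb measured 9968, 11029 and 18987 CPM with vehicle and 5656, 5382 and 39662 CPM with TCDD. Its change of 0.34 became -1.27 without mouse 18 (adjusted p = 0.361) and -0.93 without all 5 libraries that stood apart (adjusted p = 0.476). The mitochondrial median less the nuclear median was 0.96 over all libraries, -0.37 without mouse 18 and -0.20 without the 5. Mouse 18 also had the highest summed neutrophil level, 152 CPM, and B cell level, 194 CPM, of all libraries. Whether either bears on its mitochondrial counts was not tested.

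The response to TCDD was also compared between genotypes. For dHep less WT, edgeR called 0.856% of all genes and 0 members, and DESeq2 called 0 members. An unadjusted edgeR p under 0.05 was reached by 0 members, beside 8.43% of all genes. The medians were -0.02 for nuclear and 0.01 for mitochondrial members with all libraries, and 0.37 and 0.53 without the 5. The 4 complex II genes had a median of 0.74, with 1.24 for Sdhd and a lowest adjusted p of 0.750 (edgeR). Sdhd was low in dHep vehicle mice 9 and 15 (71.7 and 112 CPM, against 266 CPM in mouse 3). It was also low in dHep TCDD mouse 16 (118 CPM). These 3 libraries are among those that stood apart. For dHSC less WT, edgeR called 0% of all genes and 0 members, and DESeq2 0 members. There 2 of 90 members had an unadjusted edgeR p under 0.05, beside 1.57% of all genes. They were mt-Nd5 (1.82 ± 0.77) and mt-Co1 (1.78 ± 0.76). mt-Nd5, the proton-pumping subunit at the end of complex I, measured 4563, 4241 and 3793 CPM in dHSC vehicle mice and 3512, 3147 and 16986 CPM in dHSC TCDD mice. The medians over nuclear and mitochondrial members were -0.27 and 1.24 with all libraries and 0.03 and 0.42 without the 5. The value of mouse 18 again set the mean of mt-Nd5, and without it the difference between mitochondrial and nuclear medians fell from 1.51 to 0.14. All these comparisons share control libraries: dHep and dHSC are both set against the same 6 WT mice.

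With vehicle alone, edgeR called 0% of all genes for dHep against WT and 0% for dHSC against WT, and 0 members in either. DESeq2 called 0 members in both. The unadjusted edgeR p was under 0.05 for 0 members in dHep, beside 6.91% of all genes. In dHSC it was so for 1, Cox7a1, beside 1.48% of all genes. In dHep the medians were 0.21 (nuclear) and 0.62 (mitochondrial), led by mt-Nd3 with 2.04 and Ndufa11 with 1.64. Without the 5 libraries, which leaves 1 dHep vehicle library, they were -0.33 and -0.42. In dHSC they were 0.04 and 0.01 with all libraries, and -0.38 and -0.46 without the 5.

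Cox7a1, the heart and muscle form of complex IV subunit 7a, rested on WT vehicle mouse 1. It measured 37.8, 1.23 and 2.24 CPM in WT vehicle mice 1, 7 and 13, and 1.23 to 7.67 CPM over the other 17 libraries. Its changes of -2.00 with TCDD in WT and -2.45 for dHSC against WT with vehicle both use that library, and the first became 0.97 without it. Of the 16 skeletal muscle genes, 14 had counts in mouse 1, and Acta1 and Tnnc2 were at 0. Tnnt3, a fast troponin, measured 373 CPM there and 0 in the other WT vehicle libraries. The liver forms did not share this pattern: Cox7a2 had group means of 92.7 to 168 CPM, Cox6b1 of 226 to 415 CPM and Cox8a of 214 to 346 CPM, while Cox6b2, known from testis, had means of 0.37 to 1.02 CPM. Cox7b, with means of 193 to 270 CPM, and the ring genes Atp5g1, Atp5g2 and Atp5g3 were likewise uncalled in all 7 comparisons.

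**Figure D3:**
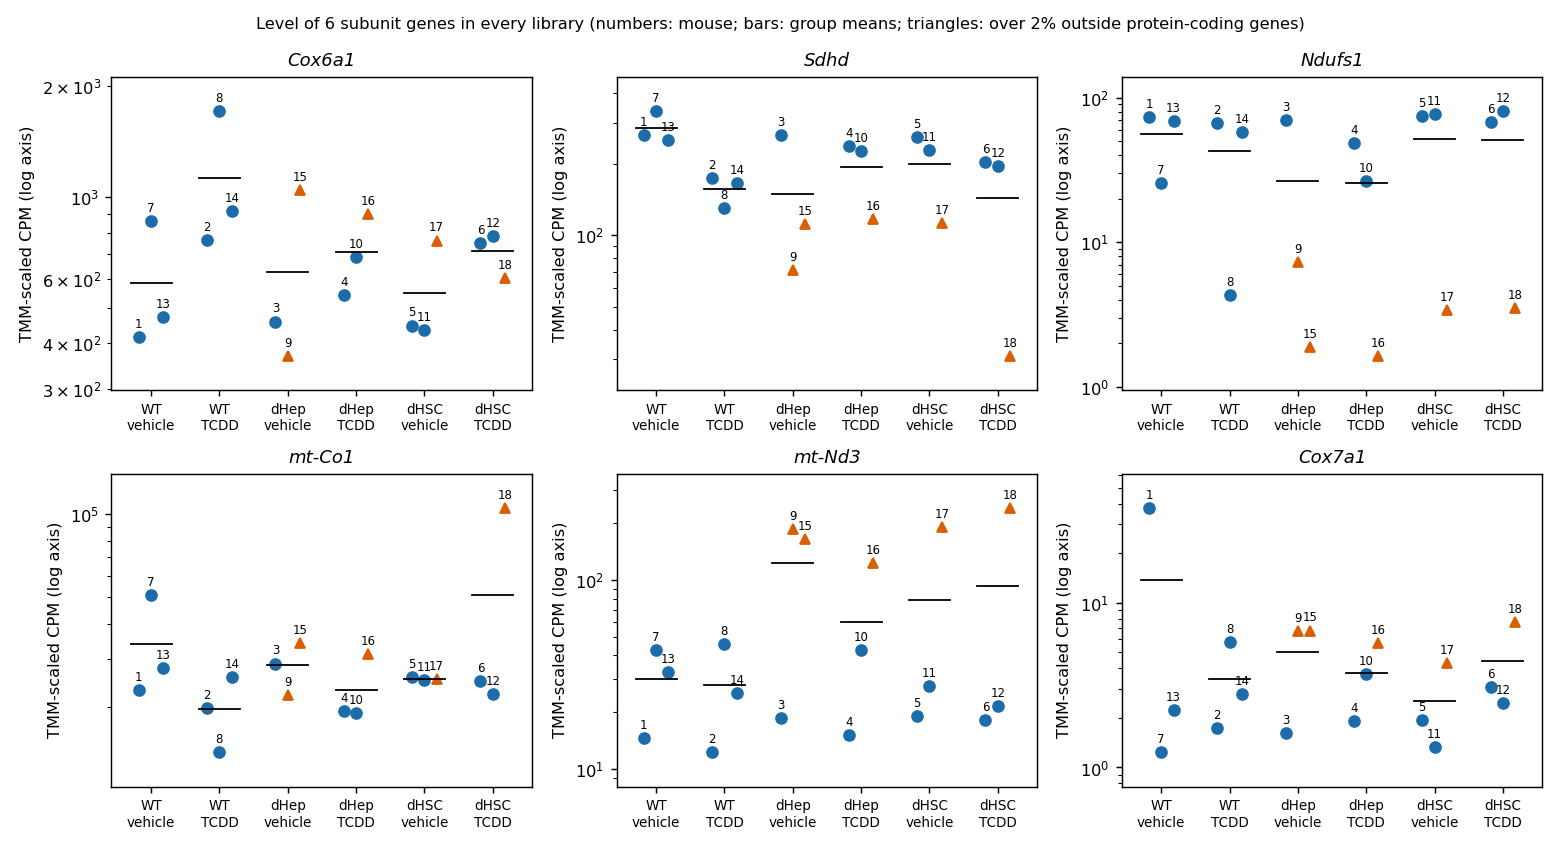
Scaled CPM, on log axes, of 6 subunit genes in each of the 18 libraries; numbers are mouse numbers, bars are group means and triangles are the 5 libraries that stood apart. Sdhd and Ndufs1 are low and mt-Nd3 is high at the triangles in dHep and dHSC groups, Cox7a1 is high in WT vehicle mouse 1, and mt-Co1 is high in dHSC TCDD mouse 18.

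The subunit genes also differed between the 5 libraries that stood apart and the other 13. These libraries were set apart by counts outside protein-coding genes, a measure that includes the nuclear copies of mitochondrial genes. Without those copies it was 1.57% to 3.10% in the 5 and 0.928% to 1.35% in the 13. The split is a description, with no test. All 13 mitochondrial members had a higher median in the 5, by a median log2 ratio of 1.28, and for 6 of the 13 (46.2%) all 5 libraries were above all 13. Over all genes tested the median ratio was 0.02, and 5.16% had all 5 above and 8.26% all 5 below. mt-Nd3 of complex I had the largest ratio, 3.10. It measured 186 and 165 CPM in dHep vehicle mice 9 and 15, 123 in dHep TCDD mouse 16, 190 in dHSC vehicle mouse 17 and 241 in dHSC TCDD mouse 18. In the other 13 libraries it lay between 12.3 and 46.1 CPM. mt-Atp6 (2.27), mt-Co3 (1.80), mt-Nd4 (1.80), mt-Co2 (1.78) and mt-Nd1 (1.18) also did not overlap. All of these but mt-Nd1 have a copy on chromosome 1. The copy of mt-Nd3 had the largest ratio, with a median of 593 CPM in the 5 and 58.3 in the 13. Medians of the other copies were 302 against 159 CPM for mt-Nd4 and 1605 against 556 CPM for mt-Atp6. They were 1338 against 502 CPM for mt-Co2 and 1654 against 464 CPM for mt-Co3.

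Nuclear members went both ways in those libraries. The median was higher in the 5 for 62 of 77 and lower for 15, and 10 members had all 5 libraries above and 10 all 5 below. Atp5b, the catalytic beta subunit of ATP synthase, measured 409, 546, 500, 655 and 177 CPM in the 5 and 1019 to 1961 CPM in the 13, a log2 ratio of -1.79. Uqcrc2 had -1.95, Sdha -1.63 and Sdhd -1.04. Cox5a (-1.22), Atp5f1 (-1.02), Ndufb8 (-0.92), Cox7a2l (-0.86), Atp5a1 (-0.73) and Ndufv1 (-0.57) completed the 10 that were lower. Ndufa11, a membrane-arm subunit of complex I, was highest on the other side: 63.3 to 88.9 CPM in the 5 and 9.81 to 51.1 CPM in the 13, a log2 ratio of 2.35. The others that were higher were Ndufb9 (1.96), Ndufb7 (1.91), Ndufa5 (1.69), Cox6b2 (1.67), Ndufa3 (1.67), Ndufv3 (1.65), Ndufab1 (1.40), Ndufs8 (1.32) and Cox6b1 (1.30). Subunits of 1 complex thus lay on opposite sides: in ATP synthase Atp5b and Atp5f1 were lower while mt-Atp6 was higher, and in complex I Ndufb8 was lower while Ndufb9 was higher.

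Ndufs1, the large iron-sulfur subunit of complex I, varied most between single libraries. It measured 1.63 to 7.32 CPM in the 5 libraries and 73.0, 25.6 and 69.2 CPM in WT vehicle mice. WT TCDD mouse 8 was as low, at 4.33 CPM, beside 66.3 and 57.8 CPM in WT TCDD mice 2 and 14, so the 5 and the 13 overlapped. Other genes cover 70.4% of its exon bases.

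**Figure D4:**
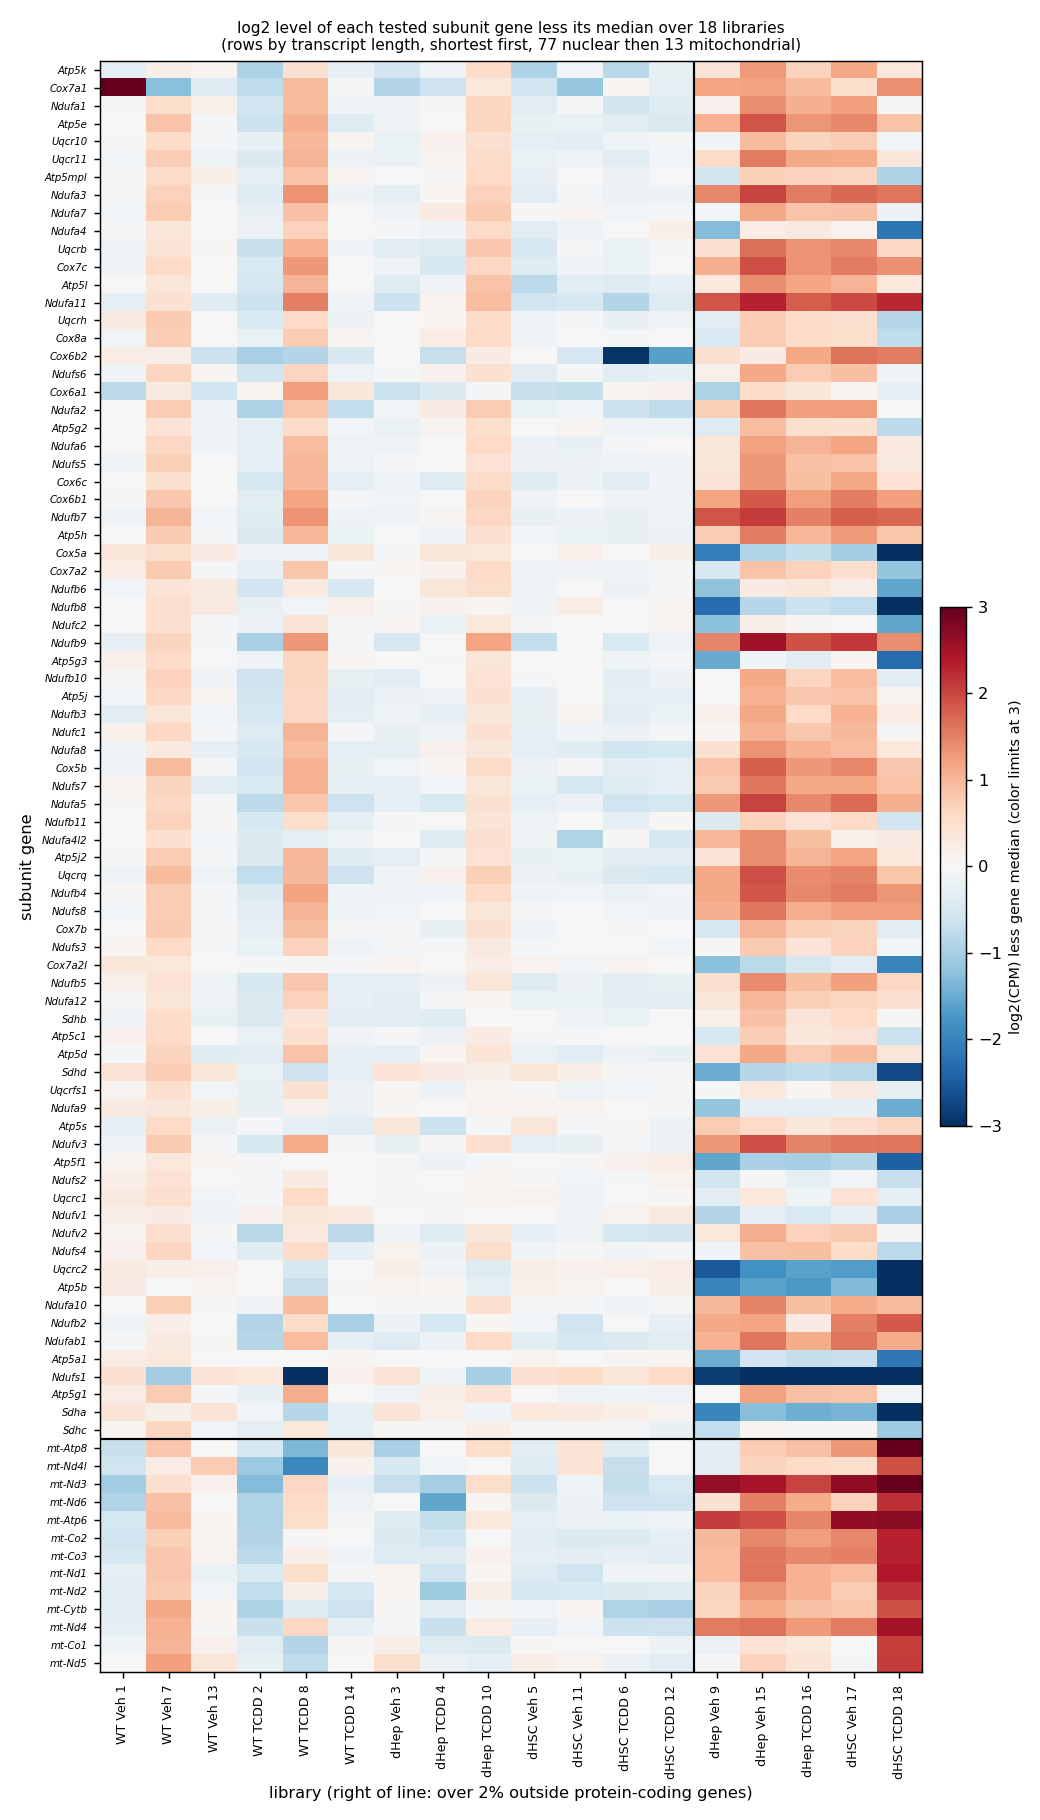
Log2 level of each tested subunit gene (rows, 77 nuclear then 13 mitochondrial, shortest transcript first) in each library (columns), less the gene's median over 18 libraries; colors stop at 3 in either direction. The 5 columns right of the line are the libraries that stood apart. Many of the same nuclear rows are red in WT TCDD mouse 8, dHep TCDD mouse 10 and WT vehicle mouse 7. Their length slopes are -0.41, -0.25 and -0.08.

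Transcript length went along with this spread. Of the 38 nuclear members with transcripts of 371 to 782 bases, 35 had a higher median in the 5 libraries and 3 a lower one. Of the 39 with 861 to 3171 bases, 27 were higher and 12 lower. The slope of a nuclear member's log2 deviation on log2 length was -0.63 to -0.40 in the 5 libraries, -0.41 in WT TCDD mouse 8, -0.25 in dHep TCDD mouse 10, and -0.08 to 0.18 in the remaining 11. The rank correlation of the same values was -0.42 to -0.24 in the 5, -0.63 in dHep TCDD mouse 10 and -0.46 in WT TCDD mouse 8. Over 13045 protein-coding genes the slope was -0.25 to 0.12 across the 18 libraries. In dHep vehicle mice 9 and 15 it was -0.02 and -0.23, and in dHep TCDD mouse 16 -0.22. In dHSC vehicle mouse 17 it was -0.18 and in dHSC TCDD mouse 18 -0.03. WT TCDD mouse 8 had -0.25 and WT vehicle mouse 7 -0.17, so a slope on length did not mark the 5 alone. The labels give RNA integrity only as above 6.8 for all samples, and its part in this pattern was not tested.

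The other genes of mitochondrial energy supply gave like counts. By edgeR, 0 of 47 tested assembly factors, 0 of 18 carriers of electrons, ADP and phosphate, 0 of 18 genes of mitochondrial DNA copying and transcription, 0 of 16 of mitochondrial RNA handling and 0 of 70 mitochondrial ribosome genes were called in any of the 7 comparisons. Up to 1, 3, 0, 1 and 1 of them had an unadjusted edgeR p under 0.05 in a comparison. The share of all genes with such a p was 1.48% to 16.7% over the 7 comparisons, and the share called by edgeR was 0% to 5.38%. DESeq2 called 1 of them, Mrpl15 of the mitochondrial ribosome, with TCDD in dHSC, where it called 763 of 14835 genes. In WT mice the changes with TCDD were -0.47 ± 0.28 for Cycs, cytochrome c, -0.18 for Cyc1, cytochrome c1 of complex III, -0.20 for Lrpprc, which holds mitochondrial messages stable, and -0.28 for Tfam, which packages and transcribes mitochondrial DNA. None of these was called.

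Of 16 nuclear regulators of mitochondrial genes, 1 was called in WT by edgeR, beside 5.38% of all genes tested, and it was higher. In the other 6 comparisons 0 were called by edgeR, beside 0% to 2.55% of all genes, and 0 by DESeq2. Up to 3 of the 16 had an unadjusted edgeR p under 0.05 there, beside 1.48% to 12.2% of all genes. Esrrg, an estrogen-related receptor, was called for TCDD in dHSC once the 5 libraries were left out, where 214 of 15595 genes were called. Myc, a transcription factor of growth, measured 2.58, 3.92 and 9.70 CPM with vehicle and 14.9, 16.1 and 16.95 CPM with TCDD. The groups did not overlap, and the change was 1.56 ± 0.41 (SE, n = 3 against 3, adjusted p = 0.0344, edgeR). The call was lost when any 1 WT library other than vehicle mouse 13 was left out (adjusted p = 0.0763 to 0.162) and with WT groups alone (adjusted p = 0.107). Ppargc1a, a coactivator that drives mitochondrial genes, measured 13.1, 14.6 and 10.8 CPM with vehicle and 10.1, 6.32 and 7.11 CPM with TCDD. All 3 TCDD libraries were lower, and its change of -0.71 ± 0.33 was not called (adjusted p = 0.288, edgeR). Gabpa had -0.58 and Nrf1, whose site is marked in the promoters above, -0.03, neither called.

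Ucp2, an inner membrane carrier of the uncoupling protein family, was the 1 uncoupling gene of 3 with enough counts to be tested. In WT it rose from 57.0, 29.3 and 48.8 CPM with vehicle to 302, 332 and 214 CPM with TCDD. In dHSC it was 47.1, 57.2 and 62.5 CPM against 121, 171 and 173 CPM. Both pairs of groups did not overlap. The log2 changes were 2.65 ± 0.31 (adjusted p = 0.000122) in WT and 1.48 ± 0.30 (adjusted p = 0.0131) in dHSC by edgeR, with 3 mice a group. In dHep it was 40.6, 63.6 and 34.3 CPM against 56.3, 67.8 and 74.3 CPM, which overlapped, and the change of 0.52 was not called. The difference between the dHep and WT responses, -2.13 ± 0.42, was called (adjusted p = 0.0242, edgeR), and that between dHSC and WT, -1.17, was not. Without the 5 libraries the WT change remained called (adjusted p = 0.000308), the dHSC change did not (adjusted p = 0.0650), nor did the dHep difference (-2.04, adjusted p = 0.159). Leaving out dHSC vehicle mouse 5 or 11 also lost the dHSC call (adjusted p = 0.0857 and 0.0632). Neutrophils and macrophages express Ucp2 too. Summed neutrophil markers were 2.41 to 5.51 against 71.9 to 93.3 CPM in WT, 6.67 to 23.6 against 13.9 to 31.4 CPM in dHep, and 3.98 to 10.2 against 12.3 to 152 CPM in dHSC. The last range was 12.3 to 16.9 CPM without mouse 18. Summed over 6 macrophage markers the levels overlapped in WT, at 174 to 531 against 398 to 602 CPM. Adgre1, Clec4f, Vsig4 and Cd5l (48.5 to 180 against 49.3 to 123 CPM) overlapped too. Csf1r (25.8 to 73.8 against 134 to 169 CPM) and Cd68 (5.04 to 11.8 against 17.1 to 20.2 CPM) did not. The part of these cells in Ucp2 was not tested.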

How the data were processed

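RNA of 18 mouse livers was measured, 3 mice in each of 6 groups taken from the sample titles. The deposited files hold raw counts per Ensembl gene. Per the submitters' processing notes, FastQC 0.11.9, HISAT2 2.1.0, HTSeq 0.11.3, DESeq2 1.22.2 and build GRCm38 were used. The counting settings are not given in the sources used here, and genes lying wholly under another gene held few or no counts, so reads over more than 1 gene appear not to be counted. Gene names and types came from GENCODE M21. The authors' counts were filtered (filterByExpr), scaled (TMM) and fitted over all 18 libraries with edgeR 4.0.16 (quasi-likelihood test, limma 3.58.1, R 4.3.3), with a mean per group and Benjamini-Hochberg adjustment over 14835 genes in each of 7 comparisons. Calls needed an adjusted p under 0.05. Common dispersion was 0.200. DESeq2 1.42.0 was an alternative. CPM values are TMM-scaled, and each library's total of at least 12706490 counts sets its counting error. The script was tested on simulated data. The members, gene lists and tests were chosen with earlier results of these data known. Members were named as follows: all mitochondrial ones, in each complex the 2 with the largest change in each TCDD comparison, tissue isoform partners, and the ends of ranges. Those whose libraries did not overlap, Ndufs1, Atp5b and Ndufa11 were named after their values were seen.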

Additional observations from a re-analysis of the deposited data

Results flagged for a closer look

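The response to TCDD differed between dHep and WT mice, by a test of the difference itself, for 2 genes named above that are not subunits. For Cyp1a1, the classical AhR target, the difference was -6.44 ± 1.02 on the log2 scale (SE, adjusted p = 0.00582, edgeR). In dHep mice Cyp1a1 measured 78.9, 86.9 and 25.9 CPM with vehicle and 304, 283 and 334 CPM with TCDD, while in WT mice it measured 33.2, 5.04 and 8.04 CPM against 5873, 8328 and 5090 CPM. Without the 5 libraries that stood apart the difference was -6.81 and no longer called (adjusted p = 0.0577). For Ucp2, the uncoupling family gene, the difference was -2.13 (adjusted p = 0.0242, edgeR), and over single libraries left out the adjusted p ran from 0.0241 to 0.0843. No subunit gene was among the results marked in this way.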

How the results depend on the processing

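Counts of called subunit genes were 0 by edgeR in all 7 comparisons, and stayed 0 under DESeq2, RLE scaling, scaling without mitochondrial genes, a minimum of 1 CPM in 3 libraries, fits of the compared groups alone, a block for sets of 6 consecutive mouse numbers, and each library left out. In WT the count was 1 with no filter on low counts (Cox8b, from the library with muscle RNA), 1 without the 5 libraries that stood apart and 1 with the log2 percent outside protein-coding genes as a covariate (Sdhd in both). Leaving out the 5 libraries, the covariate and the block were chosen after seeing the data. The mitochondrial median less the nuclear median was -0.20 without the 5 libraries for TCDD in dHSC and 0.39 for dHSC less WT. With single libraries left out it ran from -0.37 to 1.45 for TCDD in dHSC and from 0.14 to 1.87 for dHSC less WT, the lowest both without dHSC TCDD mouse 18. For TCDD in WT it ran from -0.54 to -0.17 and in dHep from -0.88 to -0.21. Of 3976 values of the 40 named members under alternatives, 428 had the sign of the change turned, none of them called before or after. Over all genes, calls in WT were 798 by edgeR, 1368 by DESeq2, 1584 without the 5 libraries and 1926 with the covariate. In dHep they were 10, 86, 0 and 41, in dHSC 379, 763, 214 and 792, and for dHep less WT 127, 296, 19 and 227. No paired analysis was possible because the groups share no mouse numbers, and nothing in the labels says that the consecutive numbers used as a block mark a litter, batch or day. A group of 3 livers with this spread limits what the test can call, and leaving out the 5 libraries leaves 1 dHep vehicle library, assumed to vary like the others.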
